A study of Mus musculus with 27 samples.

Results

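The earliest transcriptional response to retinoic acid (RA) in murine neural crest explants was taken from 6 of the 27 arrays of the series, 3 titled as RA and 3 titled as control after 6 h. The RA arrays came from one side of the dorsal neural tube, exposed to 1e-06 M RA dissolved in ethanol for 6 h. The controls were the opposite sides, since each tube was cut along its midline and its parts were divided between both groups. Both groups had already spent a night in culture on fibronectin, with horse serum in DMEM, when RA was added. The strain and stage of the embryos, and whether control sides received ethanol alone, are not given in the sources used here. Arrays of 12, 24 and 48 h of exposure are used where the 6 h response is set beside later ones. Each array gave intensities after robust multi-array averaging (RMA) for 12488 probe sets, short groups of probes for one transcript. Without 66 array controls 12422 were tested, on a log2 scale taken here.

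RA is the hormone form of vitamin A and enters cells by itself. It binds retinoic acid receptors, which sit on DNA with a retinoid X receptor at pairs of short half-sites and switch from repressing to activating transcription when the hormone is bound. Cells hold its level through carrier proteins and through enzymes that make it or break it down, and several of those genes are direct receptor targets, as are Hox genes at the 3' ends of their clusters, which give neural crest and hindbrain cells their position along the body axis.

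Promoters of the leading genes are shown for the receptor's motif. Windows of 300 bases, 250 before and 50 after the annotated start, came from RefSeq on GRCm38.p6. The half-site searched on both strands was AGGTCA, or the variant AGTTCA, or the variant GGGTCA, or as the last variant GGTTCA, and a direct repeat was defined as a pair of them in the same orientation with 5 bases between. The Cyp26a1 window at chr19:37697558-37697857 on the plus strand held one such repeat, in capitals, on the opposite strand, at positions 219 to 235 of the window, and 15 bases lay between its end and the annotated start.
Cyp26a1: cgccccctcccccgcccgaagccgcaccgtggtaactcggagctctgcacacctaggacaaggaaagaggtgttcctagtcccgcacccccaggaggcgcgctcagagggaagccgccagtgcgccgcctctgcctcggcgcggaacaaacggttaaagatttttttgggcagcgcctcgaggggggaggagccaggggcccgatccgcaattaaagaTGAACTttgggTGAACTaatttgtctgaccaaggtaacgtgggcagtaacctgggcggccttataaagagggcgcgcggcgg
The Hoxa5 window at chr6:52204538-52204837 on the minus strand is shown because Hoxa5 had the largest difference of the comparison. It held a single half-site, in capitals, at position 292, downstream of the start, and no repeat.
Hoxa5: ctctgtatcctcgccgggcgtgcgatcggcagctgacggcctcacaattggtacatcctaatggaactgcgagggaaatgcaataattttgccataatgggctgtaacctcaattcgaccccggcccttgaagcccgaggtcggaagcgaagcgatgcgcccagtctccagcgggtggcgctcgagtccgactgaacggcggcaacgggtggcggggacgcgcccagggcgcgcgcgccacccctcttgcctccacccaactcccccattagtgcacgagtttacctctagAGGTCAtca
None of the 3 Dhrs3 windows held a half-site. Over all genes with a window 31 of 27025 (0.115%) held the direct repeat, and 46.9% held at least 1 half-site, so a half-site alone is common. Among genes called higher at 6 h in a fit with replicate pairs as a block, 28 had a window. Cyp26a1 alone of them held the direct repeat, and 14 of the 28 held a half-site. Of 59 genes called lower with a window, 0 held the repeat and 24 (40.7%) held a half-site. A repeat with 2 bases between was searched as well. It was held by 0 of the 28, by 0 of the 59 and by 84 of all 27025 genes (0.311%). A match of letters is a description of the window and not a site shown to be bound.

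The arrays of one group correlated with each other at 0.991 to 0.996 across probe sets, and no pair of arrays held identical values. Array medians at 6 h lay between 92.0 and 96.6 on the linear intensity scale. Equal replicate numbers marked arrays scanned on one day, pairs 1 and 2 on one day and pair 3 on another. Once the mean of its group was taken from each array, the RA and control array of a pair correlated over the probe sets at 0.447, 0.470 and 0.451, while RA and control arrays of different pairs correlated at -0.31 to -0.06. The deviations within a group sum to 0, so positive values within pairs bring negative ones between pairs with them. At 6 h the pair carried 50.3% of the variance between the 6 arrays on 2 degrees of freedom. RA carried 30.3% on 1 and the remainder was 19.3% on 2, so the shares do not compare directly. The differences were therefore tested both without a block and with the pair as a block, in limma fits over all 27 arrays. The number of arrays limits the precision, and nothing in the labels says that arrays of a group came from separate litters or cultures, so a p-value covers only how much these arrays spread. Of 34 neural crest markers measured, 21 lay above the array median in all 6 arrays, among them the transcription factors Snai2 and Twist1, and 4 lay below the 25th percentile in all 6. Sox10, which maintains neural crest and its glia, lay at 7.25 to 7.47 with RA and at 7.30 to 7.66 in controls. Foxd3, an early crest specifier, was dim at 4.52 to 4.72 with RA and 4.69 to 4.73 in controls.

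After 6 h the clearest changes were rises of Hoxa5 (4.50-fold), Dhrs3 (2.80-fold) and Cyp26a1 (2.14-fold), a Hox gene and 2 enzymes of retinoid metabolism. They were the probe sets that passed an adjusted p below 0.05 in limma without a block, 3 of 12422 (0.0242%), all of them higher. Without a block 533 probe sets had an unadjusted p below 0.05, which is less than a share of 0.05 of the 12422 tested. With the pair as a block 118 probe sets passed (0.95%), of which 41 were higher (0.33%) and 77 lower (0.62%). The 118 named 105 genes, and the 3 were among them. All 41 were higher and all 77 lower in 3 of 3 pairs, where 21.8% of all probe sets were higher and 19.5% lower in 3 of 3. The blocked fit favours differences that agree between pairs, so this follows in part from the choice. As the 3 pairs agreed for all 118, leaving 1 pair out of that fit could not turn a direction. The count then was 69 without pair 1, 4 without pair 2 and 3 without pair 3. Of these, 34 were lower without pair 1 and 0 without pair 2 or without pair 3. Each of the 77 falls therefore lost its call in both of those fits. Hoxa5, Dhrs3 and the unnamed probe set 104716_at passed in each of these 3 fits. With scan day in place of the pair as the block 55 passed. Within the scan day of pairs 1 and 2 alone, 0 passed and 766 had an unadjusted p below 0.05, with differences there of 2.05 log2 for Hoxa5, 1.39 for Dhrs3 and 1.13 for Cyp26a1. The day of pair 3 held 1 pair and gave no test. Among the 41 higher probe sets, 29 had all 3 RA arrays above all 3 controls, where 7.28% of all probe sets did. Among the 77 lower ones, 66 had all 3 RA arrays below all 3 controls, where 8.29% of all probe sets did. These probe sets were picked from the same arrays, so their larger shares follow in part from the choice. The sizes were modest, with 5 called rises and 1 called fall beyond 1 log2 unit.

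**Figure D1:**
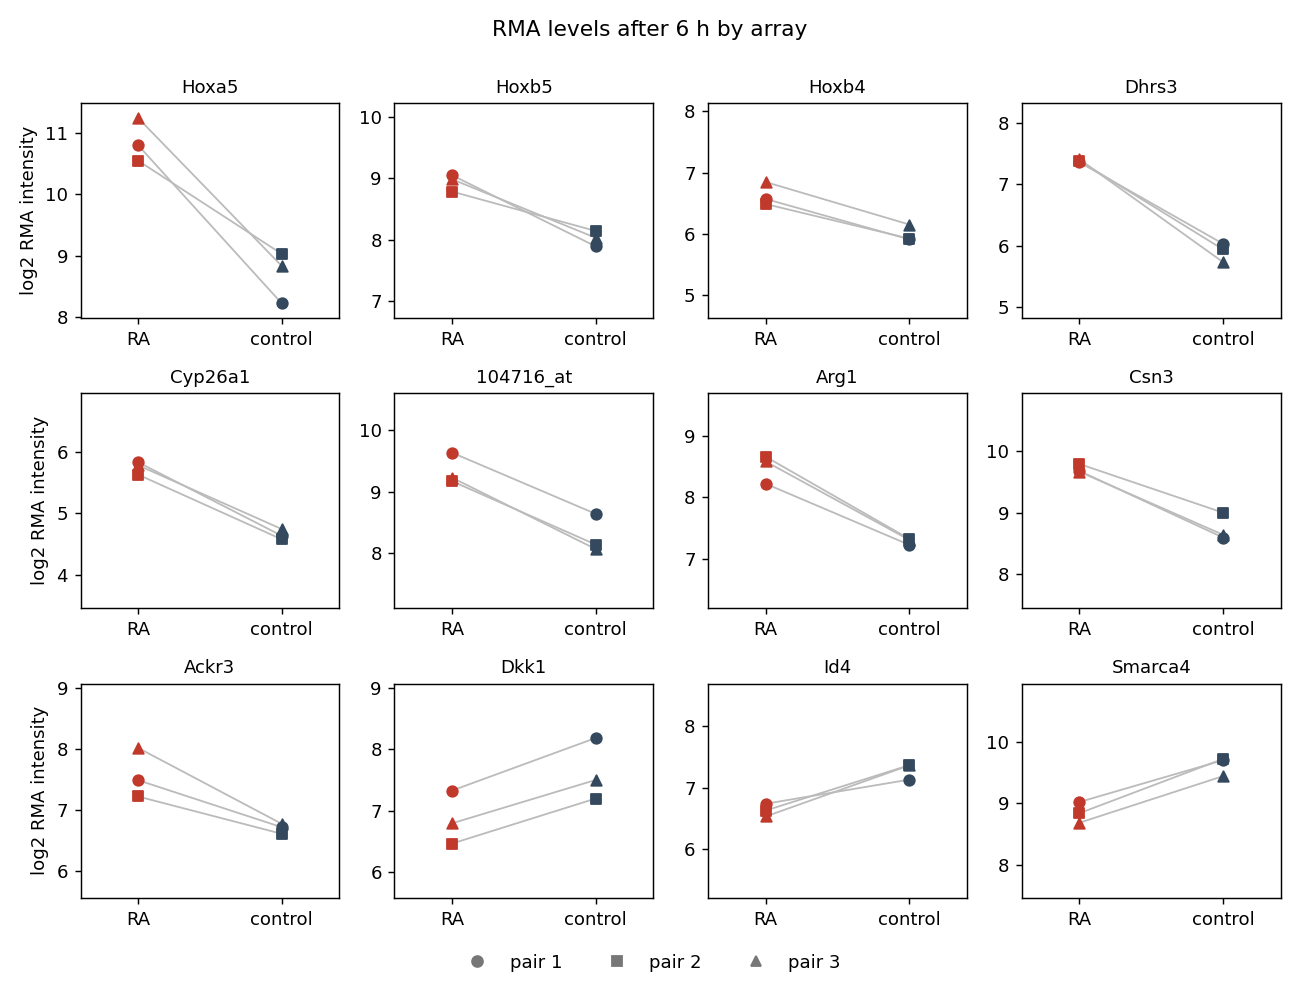
Log2 RMA intensity on each array after 6 h for 12 probe sets called with the pair block, RA on the left and control on the right of each panel. Symbols mark pairs 1 to 3 and grey lines join the arrays of a pair, and every panel spans the same 3.5 log2 units. The 3 RA arrays lie above the 3 controls for the 9 probe sets from Hoxa5 to Ackr3 and below them for Id4 and Smarca4, while for Dkk1 the groups overlap and RA is lower within each pair.

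The 3 Hox genes called at 6 h belonged to paralogue groups 4 and 5. Hoxa5 (103086_at), which patterns the cervical and upper thoracic axis, was measured at 10.80, 10.55 and 11.25 in RA arrays 1, 2 and 3, against 8.22, 9.03 and 8.83 in controls 1, 2 and 3. Every RA array lay far above every control. Hoxa5 averaged 10.87 ± 0.35 with RA and 8.70 ± 0.42 in controls (SD, n = 3 each), a rise of 2.17 log2 (SE 0.30, limma adjusted p = 0.00270, and 6.30e-05 with the pair block). Hoxb5 (103666_at), its paralogue in the B cluster, was measured at 9.05, 8.78 and 8.99 in RA arrays 1, 2 and 3, against 7.89, 8.14 and 8.03 in controls 1, 2 and 3. Its 3 RA arrays lay above all 3 controls, and it rose by 0.92 log2 with the pair block (SE 0.15, adjusted p = 0.0115, against 0.231 without a block). Hoxb4 (92255_at), its neighbour in the cluster, was measured at 6.57, 6.49 and 6.85 in RA arrays 1, 2 and 3, against 5.91, 5.92 and 6.15 in controls 1, 2 and 3. It rose by 0.64 log2 with the pair block (SE 0.11, adjusted p = 0.0129, against 0.551 without a block), and again no RA array overlapped a control. Hoxb5 and Hoxb4 lost the call when any 1 pair was left out (adjusted p = 0.0605 to 0.206 and 0.0518 to 0.207).

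The other Hox genes had smaller differences. Of 31 Hox genes measured, 26 had a difference above 0, 13 were higher in 3 of 3 pairs and 1 was lower in 3 of 3, and 3 were called, all higher. Over all 8251 genes 20.2% were higher and 22.1% lower in 3 of 3 pairs, and with the pair block 0.412% were called higher and 0.654% lower. Genes are counted here by their brightest probe set, in this and the other lists. The list's median difference was 0.07 log2, against 0.02 over all genes, so most members were near the middle of the distribution. Hoxb1 (93888_at), the hindbrain gene at the 3' end of its cluster with well studied RA response elements, was measured at 7.42, 7.19 and 6.98 in RA arrays 1, 2 and 3, against 6.67, 6.45 and 6.67 in controls 1, 2 and 3. It was higher in 3 of 3 pairs by a mean of 0.60 log2 and did not pass (adjusted p = 1.00, and 0.126 with the pair block). Hoxc4 differed by 0.48, Hoxc6 by 0.31 and Hoxb6 by 0.24 log2, each higher in 3 of 3 pairs and none called. Hoxa4 differed by 0.13 log2 on its brightest probe set and was not called there. A probe set of Hoxa4 was, however, among the 6 that passed with 6 h arrays alone and no block. Hoxa3 differed by 0.21 log2, while Hoxb3 differed by -0.01 and was higher in 2 of 3 pairs. Genes of groups 9 to 13, the posterior end of the clusters, differed by -0.12 (Hoxd13) to 0.20 log2 (Hoxd10), and none was called.

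Enzymes and a carrier of retinoids rose beside them. Dhrs3 (102797_at), which reduces retinal back to retinol and so lowers the supply of RA, was measured at 7.36, 7.39 and 7.41 in RA arrays 1, 2 and 3, against 6.03, 5.94 and 5.73 in controls 1, 2 and 3. The RA arrays lay close together and well above every control. It rose by 1.48 log2 (SE 0.22, limma adjusted p = 0.00461, and 1.02e-06 with the pair block), and without control 3 the fit without a block gave an adjusted p of 0.0781. Cyp26a1 (98320_at), which oxidises and clears RA, was measured at 5.83, 5.63 and 5.78 in RA arrays 1, 2 and 3, against 4.63, 4.58 and 4.74 in controls 1, 2 and 3. The 3 controls lay below their arrays' 25th percentile, where RMA compresses differences, so the fold is uncertain. It rose by 1.10 log2 (SE 0.19, limma adjusted p = 0.0355, and 0.0164 with the pair block), but without any 1 of the 6 arrays the adjusted p without a block was 0.111 to 0.354. It was 0.0677 after median centring and 0.199 after cyclic loess, and the blocked fit lost the call too without any 1 pair (0.0660 to 0.207). Fabp5 (160544_at), a fatty acid binding protein that can also carry RA, was measured at 10.41, 10.61 and 10.24 in RA arrays 1, 2 and 3, against 9.79, 9.84 and 9.81 in controls 1, 2 and 3. It rose by 0.61 log2 with the pair block (SE 0.14, adjusted p = 0.0483, against 0.762 without a block), a call lost without any 1 pair (0.117 to 0.368).

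These were 3 of 21 measured genes of retinoid metabolism and transport, where 0.412% of all genes were called higher with the pair block. Crabp2 (100127_at), which hands RA to its receptor, was measured at 11.52, 10.62 and 11.26 in RA arrays 1, 2 and 3, against 11.22, 10.31 and 10.83 in controls 1, 2 and 3. It was higher within each pair but pairs differed more than treatments did, and its difference of 0.35 log2 did not pass (0.366 with the pair block). Crabp1, its relative, differed by 0.16 log2 with 2 of 3 pairs higher. The enzymes that make RA from retinal were lower in 3 of 3 pairs for Aldh1a2 (-0.31 log2) and Aldh1a3 (-0.20), neither called, and Aldh1a1 differed by 0.10. Stra6, a retinol importer and a known RA target elsewhere, differed by 0.06 log2, and Dgat1, which can esterify retinol, by -0.41 with 3 of 3 pairs lower and no call.

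One of the retinoid receptors and cofactors was called. Of 21 measured, 10 had a difference above 0 and the median was -0.00014 log2. Rara differed by -0.22 log2 with all 3 pairs lower, Rarg by 0.07 and Rxra by 0.14, and none of these was called. The deacetylase Hdac1 differed by -0.46 with all 3 pairs lower and was not called either. Sin3a (103011_at), the scaffold of a histone deacetylase complex, was called, at 8.61, 8.59 and 8.34 in RA arrays 1, 2 and 3, against 9.10, 9.01 and 8.73 in controls 1, 2 and 3. It fell by 0.43 log2 with the pair block (SE 0.10, adjusted p = 0.0483, against 1.00 without a block), and its 3 RA arrays lay below all 3 controls. Of 16 known RA targets measured, Hoxa5, Hoxb5, Dhrs3 and Cyp26a1 were the 4 called, 12 differed by more than 0 and the median was 0.18 log2. With the pair block 0.412% of all genes were called higher and 0.654% lower. The lists were chosen with earlier results of these data known. Tgm2, a transglutaminase, differed by 0.20, the caudal homeobox gene Cdx1 by 0.17 and Nr2f2, an orphan receptor, by 0.20 log2. Nr2f1 differed by -0.02, the corepressor Nrip1 by 0.04, Meis2 by -0.06, Stra8 by 0.01, Bhlhe40 by -0.09 and Btg2 by -0.16 log2. None of these 9 passed in either fit, and the sign of Nr2f2, Nr2f1, Nrip1, Meis2, Stra8, Stra6 and Bhlhe40 turned under at least 1 alternative.

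**Figure D2:**
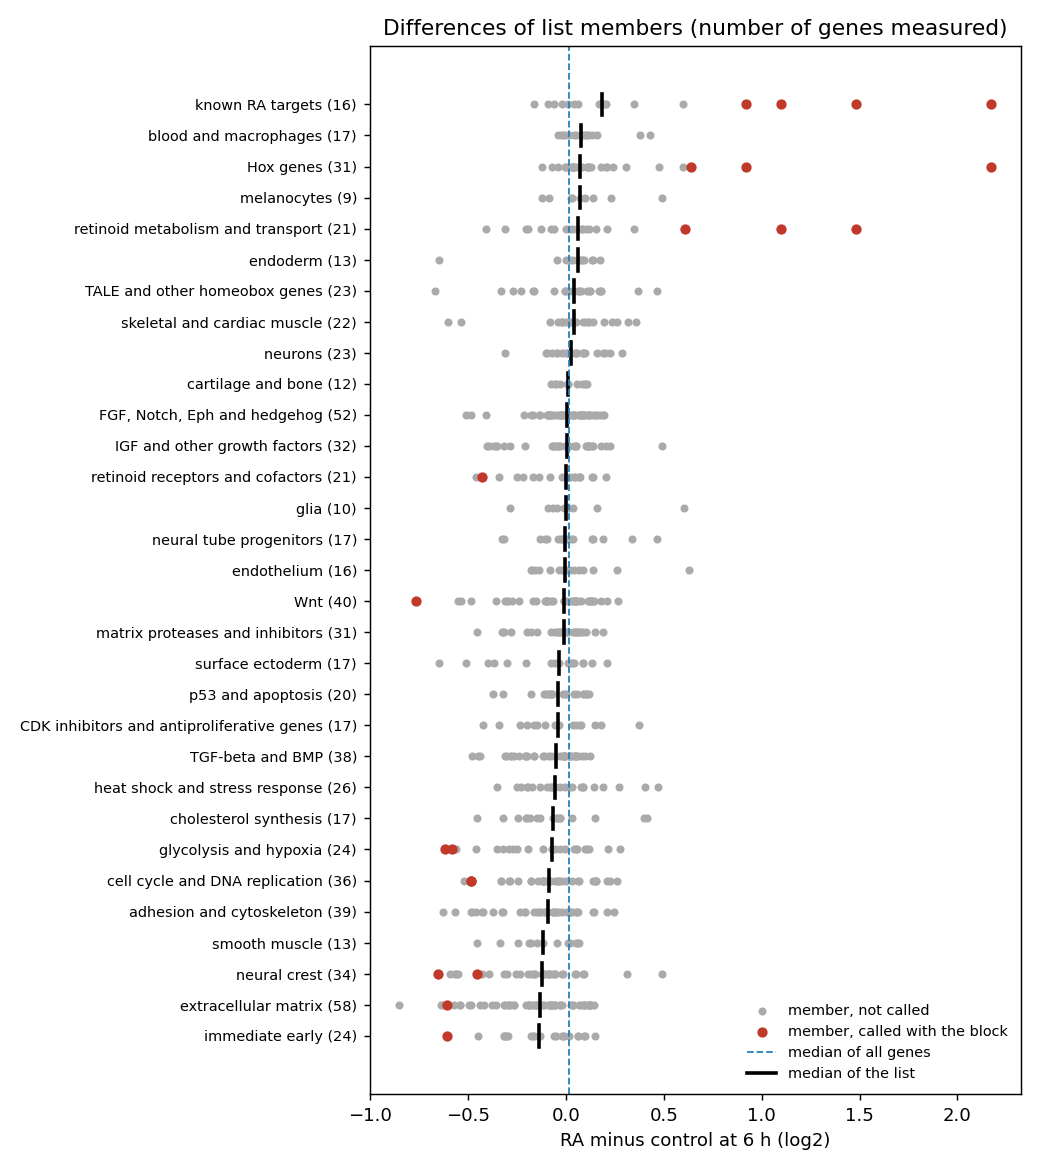
Difference between RA and control after 6 h, in log2, for the measured members of 31 gene lists, each a point, with the list's size in brackets. Red points passed with the pair block, black bars mark list medians and the dashed line the median of all genes at 0.02. Called members on the right are Hox and retinoid genes, and list medians run from -0.14 for immediate early genes to 0.18 for known RA targets.

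Genes outside the retinoid and Hox lists also rose. Arg1 (93097_at), arginase, which splits arginine into ornithine and urea, was measured at 8.22, 8.66 and 8.59 in RA arrays 1, 2 and 3, against 7.23, 7.32 and 7.31 in controls 1, 2 and 3. It rose by 1.21 log2, or 2.31-fold, with the pair block (SE 0.17, adjusted p = 0.00376, against 0.303 without a block). Every RA array lay above every control, and the call was lost without pair 2 or 3 (adjusted p = 0.0728 and 0.102). Csn3 (99065_at), kappa-casein, known from milk, was measured at 9.68, 9.79 and 9.67 in RA arrays 1, 2 and 3, against 8.59, 9.0 and 8.64 in controls 1, 2 and 3. It rose by 0.97 log2 with the pair block (SE 0.12, adjusted p = 0.00176, against 0.241 without a block) and lost the call without pair 3 (0.0756). The unnamed probe set 104716_at was measured at 9.64, 9.17 and 9.23 in RA arrays 1, 2 and 3, against 8.64, 8.14 and 8.07 in controls 1, 2 and 3. It rose by 1.07 log2 with the pair block (SE 0.11, adjusted p = 0.000143, against 0.935 without a block), and it kept the call without any 1 pair. Ackr3 (93430_at), a scavenging receptor for the chemokine CXCL12, which guides migrating cells, was measured at 7.49, 7.22 and 8.02 in RA arrays 1, 2 and 3, against 6.72, 6.61 and 6.78 in controls 1, 2 and 3. It rose by 0.87 log2 with the pair block (SE 0.15, adjusted p = 0.0129, against 0.768 without a block), with the RA arrays more spread than the controls, and the call was lost without pair 2 or 3 (0.0657 and 0.295).

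The other named rises were smaller. Mrps21 (94912_at), a protein of the mitochondrial ribosome, was measured at 10.46, 10.20 and 10.16 in RA arrays 1, 2 and 3, against 9.92, 9.32 and 9.30 in controls 1, 2 and 3. All 3 RA arrays lay above all 3 controls, and it rose by 0.76 log2 with the pair block (adjusted p = 0.0155, against 0.935 without a block). Timm8b, which helps carry proteins into mitochondria, rose by 0.70 (0.0131 with the pair block) and Tmem14c, an inner membrane protein needed for heme synthesis, by 0.69 (0.0155). Mettl5, a methyltransferase of ribosomal RNA, rose by 0.72 (0.0168), Anapc13, a small subunit of the anaphase-promoting complex, by 0.66 (0.0262), and 2810025M15Rik by 0.71 (0.00333). Beyond the named-gene rule and picked after their values were seen, Mrpl36 rose by 0.63 (a dim second probe set differed by 0.14), Uqcrh of respiratory complex III by 0.61, Rpa3 of the single-strand DNA binding complex by 0.60 and Timm8a1 by 0.47 log2. Within pairs 1, 2 and 3 Timm8b was higher by 0.34, 0.75 and 1.00 log2 and Anapc13 by 0.39, 0.71 and 0.88, smallest in pair 1 for both.

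**Figure D3:**
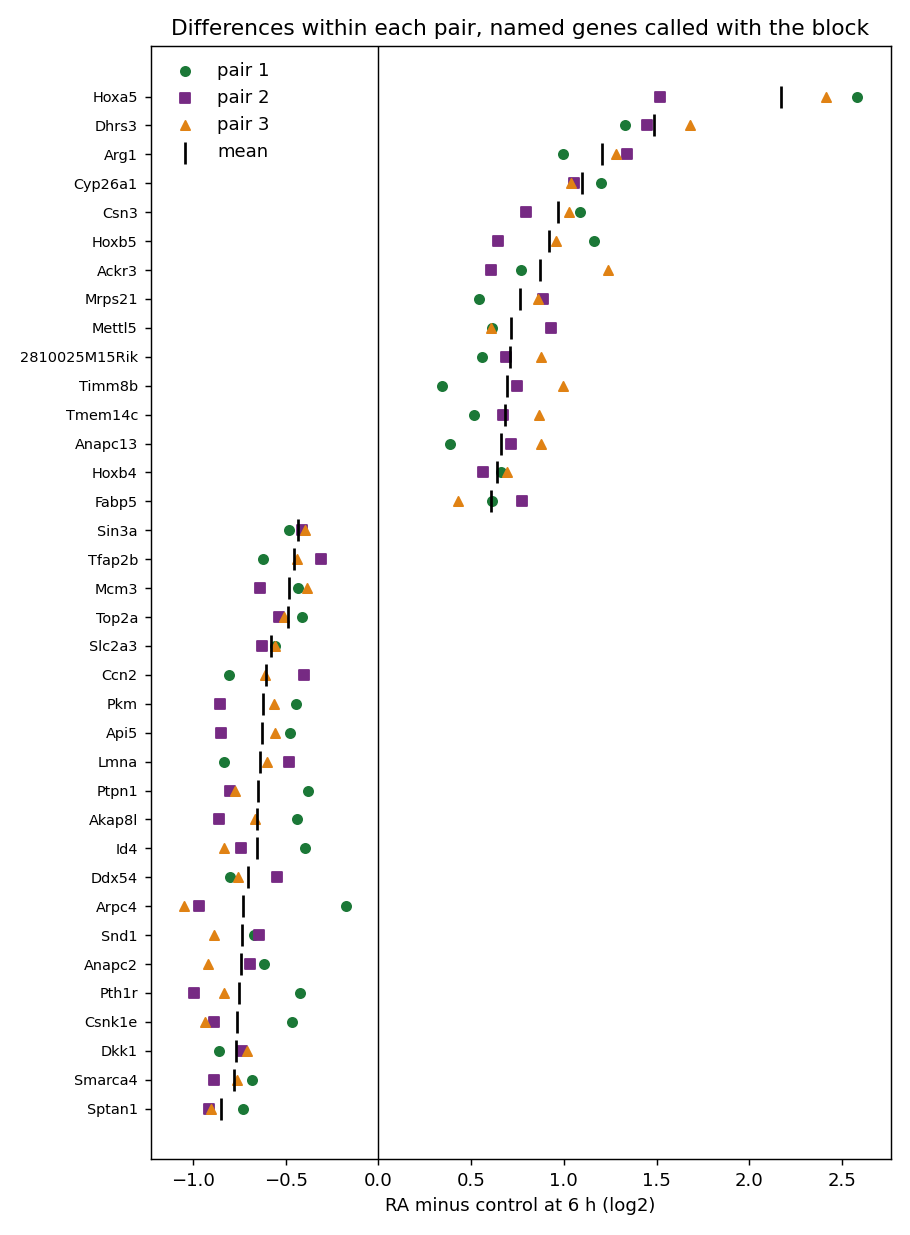
RA minus control after 6 h, in log2, within each of the 3 pairs, for the named genes called with the pair block, ordered by their mean, which a black bar marks. All 3 points of every gene lie on one side of 0, which follows in part from how the genes were picked. The spread among pairs is widest for Hoxa5, from 1.52 in pair 2 to 2.58 in pair 1.

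Of 4 transcripts with control probe sets at both ends, the gap that serves as a measure of RNA quality was larger with RA in 3 of 3 pairs for 2. Beta-actin control probe sets at the 3' end of the transcript exceeded those at its 5' end by 1.91, 1.86 and 1.47 log2 in RA arrays 1, 2 and 3, against 1.65, 1.60 and 1.22 in controls 1, 2 and 3. Within the pairs the gap was higher with RA by 0.26, 0.26 and 0.25 log2, and at the later times it was higher with RA in 6 of 10 pairs. The same gap for Gapdh was higher with RA by 0.34, 0.07 and 0.28 log2, for pyruvate carboxylase it was higher in 1 of 3 pairs and for the transferrin receptor in 0 of 3. Across 8237 genes the 6 h difference correlated with the log2 length that the gene spans on the genome at r = -0.230, against -0.090, -0.068 and -0.037 at 12, 24 and 48 h. In 5 bins of equal size, the genes of the shortest bin had a median difference of 0.07 log2, with 12 called higher and 7 lower, and those of the longest bin -0.03, with 1 called higher and 8 lower. Genes share their arrays here and are not independent replicates. The part of RNA quality or gene length in the smaller rises and falls was not tested.

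**Figure D4:**
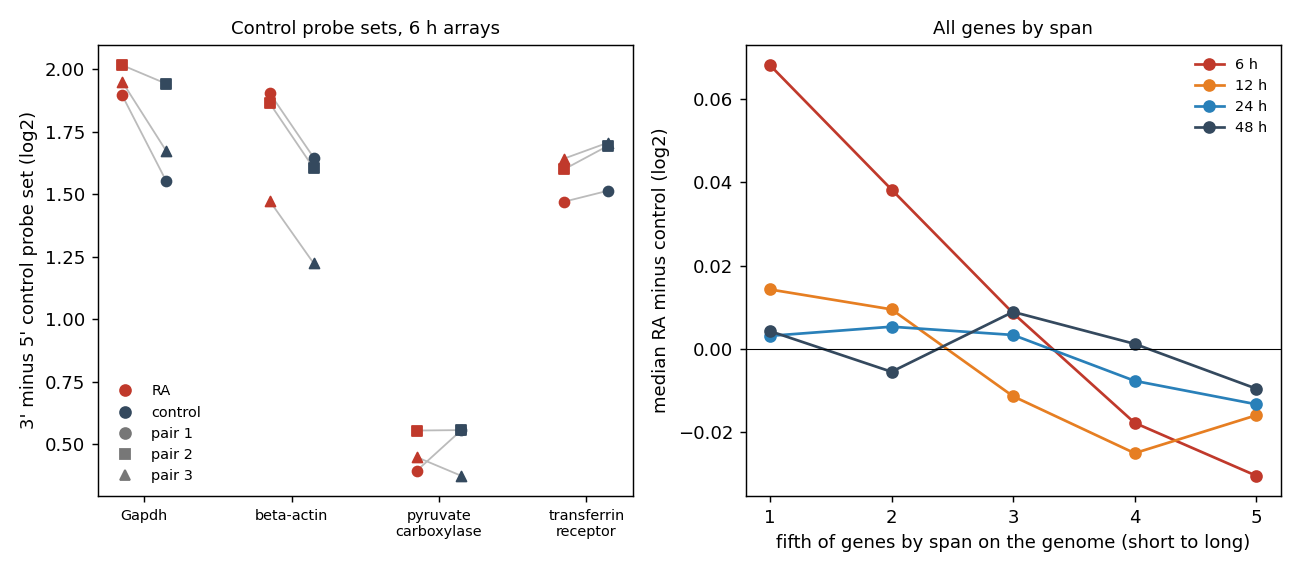
Left, the log2 gap between 3' and 5' control probe sets on each 6 h array, RA left of control, with grey lines joining pairs. The gap is larger with RA in 3 of 3 pairs for Gapdh and beta-actin. Right, the median log2 difference of genes in 5 equal bins of genomic span, at each time, which at 6 h is 0.07 in the shortest bin and -0.03 in the longest.

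Signalling and crest genes were among those that fell. No fall named here or below kept its call without pair 2 or without pair 3. Dkk1 (99881_at), a secreted inhibitor of Wnt signalling, was measured at 7.33, 6.46 and 6.79 in RA arrays 1, 2 and 3, against 8.19, 7.20 and 7.50 in controls 1, 2 and 3. RA 1 lay above control 2, so the groups overlapped, but within pairs 1, 2 and 3 Dkk1 was lower by 0.86, 0.73 and 0.71 log2. It fell by 0.77 log2 with the pair block (SE 0.11, adjusted p = 0.00535, against 0.765 without a block) and lost the call without pair 2 or 3 (0.0728 and 0.102). Dkk1 was the 1 called of 40 Wnt pathway genes, whose median was -0.01 log2, where 0.654% of all genes were called lower. Of the 40, 6 were higher and 9 lower in 3 of 3 pairs, where 20.2% and 22.1% of all genes were. The Wnt receptor partner Lrp6 differed by -0.55 and the corepressor Tle1 by -0.54 log2, both lower in 3 of 3 pairs, and neither passed. Id4 (96144_at), an inhibitor of bHLH factors that delays differentiation, was measured at 6.74, 6.63 and 6.53 in RA arrays 1, 2 and 3, against 7.13, 7.37 and 7.36 in controls 1, 2 and 3. Its RA arrays lay below all controls, and it fell by 0.66 log2 with the pair block (SE 0.11, adjusted p = 0.00985, against 0.935 without a block). Tfap2b (92903_at), a transcription factor of crest and its sympathetic derivatives, was measured at 7.01, 7.17 and 6.77 in RA arrays 1, 2 and 3, against 7.63, 7.48 and 7.21 in controls 1, 2 and 3. It fell by 0.46 log2 with the pair block (SE 0.10, adjusted p = 0.0483, against 1.00 without a block), and again no array of one group overlapped the other.

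Id4 and Tfap2b were the 2 called among 34 neural crest markers, whose median was -0.12 log2, with 3 higher and 14 lower in 3 of 3 pairs. Of all genes 0.654% were called lower, and 20.2% were higher and 22.1% lower in 3 of 3 pairs. The distal-less genes Dlx2 (-0.59), Dlx1 (-0.55) and Dlx5 (-0.39), which pattern the branchial arches, and the cadherin Cdh6 (-0.57) were lower in 3 of 3 pairs without passing. Snai2 differed by -0.07, Sox10 by -0.09, Twist1 by -0.16 and Pax3 by -0.18 log2, none called. Ednrb, the endothelin receptor of the melanocyte and enteric lineages, differed by 0.49 with 3 of 3 pairs higher. It lay below the 25th percentile on every RA and control array and did not pass (0.135 with the pair block). Summed over the list, linear intensities ran from 11528 to 12967 in RA arrays and from 12876 to 13757 in controls. In bulk RNA fewer cells of a type and less RNA per cell cannot be told apart. Outside the lists and picked after their values were seen, the forkhead gene Foxd1 fell by 0.58 log2 (0.0129 with the pair block) and one probe set of Sox11 by 0.57, where its brighter probe set differed by -0.30 and did not pass.

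More matrix, adhesion and smooth muscle genes were lower than higher in 3 of 3 pairs, and 1 of these passed. Over all genes the shares were 22.1% lower and 20.2% higher, and 0.654% were called lower with the pair block. Ccn2 (93294_at), a matricellular protein that responds to cell tension, was measured at 9.97, 10.55 and 10.65 in RA arrays 1, 2 and 3, against 10.77, 10.95 and 11.26 in controls 1, 2 and 3. Within pairs it was lower by 0.80, 0.40 and 0.61 log2, and it fell by 0.61 with the pair block (SE 0.11, adjusted p = 0.0155, against 0.762 without a block). Ccn2 was the 1 called of 58 extracellular matrix genes, of which 6 were higher and 27 lower in 3 of 3 pairs, with a median of -0.13 log2. The summed intensity of the list was 17292 to 20718 in RA arrays and 22542 to 24551 in controls, without overlap. Col1a2, a chain of type I collagen, differed by -0.85 log2, tenascin Tnc by -0.64, the laminin chain Lamb2 by -0.63 and Col3a1 by -0.57, each lower in 3 of 3 pairs and none passing. Fn1, fibronectin, differed by -0.09 and Col1a1 by -0.17. Smooth muscle markers summed to 18773 to 19480 with RA and 20718 to 21393 in controls, with 7 of 13 lower in 3 of 3 pairs and 0 called.

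Of the cytoskeleton, Sptan1 (103345_at), a spectrin that lines the membrane, was measured at 7.19, 7.22 and 6.93 in RA arrays 1, 2 and 3, against 7.92, 8.13 and 7.83 in controls 1, 2 and 3. All 3 RA arrays lay below all 3 controls, and it fell by 0.85 log2 with the pair block (SE 0.17, adjusted p = 0.0287, against 1.00 without a block). Arpc4 (160094_at), of the Arp2/3 complex that branches actin filaments, was measured at 10.18, 9.55 and 9.70 in RA arrays 1, 2 and 3, against 10.35, 10.52 and 10.75 in controls 1, 2 and 3. It fell by 0.73 log2 (0.0171 with the pair block, 0.935 without), by 0.17 in pair 1 and by 0.97 and 1.05 in pairs 2 and 3. Lmna (98059_s_at), which gives the A-type lamins of the nuclear envelope, fell by 0.64 (0.0216 with the pair block), while its other probe set differed by -0.10 and did not pass. Picked after their values were seen, the actin regulators Lasp1 (-0.53), Lima1 (-0.46) and Csrp1 (-0.43), the caveolar protein Cavin1 (-0.61), and the adhesion molecule Mcam (-0.57) also fell with the pair block. Dimmer probe sets of Lasp1 (-0.04) and Cavin1 (-0.02) did not pass, and a second one of Csrp1 fell by 0.51. One of 3 probe sets of Flii (95489_at), an actin-binding protein of the gelsolin family, fell by 1.11 log2 (0.00433 with the pair block), the largest called fall, while the other probe sets differed by -0.45 and -0.25 and did not pass. Likewise 1 probe set of cortactin Cttn fell by 0.79 and its brighter one differed by -0.39, and 1 of Rangap1 fell by 0.84 where the brighter one differed by -0.25. Among all genes 22.1% were lower and 20.2% higher in 3 of 3 pairs, and 0.412% were called higher and 0.654% lower with the pair block. In the 39 measured genes of the adhesion and cytoskeleton list 12 were lower and 4 higher, and 0 were called. Vcam1 was furthest at -0.63 log2 on its brightest probe set, with the other probe sets at -0.00049 and -0.25.

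Smarca4 (98463_at), the ATPase BRG1 of the SWI/SNF chromatin remodelling complex, was measured at 9.02, 8.84 and 8.69 in RA arrays 1, 2 and 3, against 9.71, 9.73 and 9.45 in controls 1, 2 and 3. The RA arrays lay below all controls, and it fell by 0.78 log2 with the pair block (SE 0.12, adjusted p = 0.00535, against 1.00 without a block), while a dim second probe set differed by 0.11. Ddx54, an RNA helicase, fell by 0.70 (0.00985 with the pair block), Snd1, a nuclease-domain protein that binds RNA, by 0.73 (0.0168), and Akap8l, a nuclear anchoring protein, by 0.65 (0.0483). Anapc2, the cullin subunit of the anaphase-promoting complex, fell by 0.74 (0.0188), opposite in direction to the small subunit Anapc13. Over all genes 22.1% were lower and 20.2% higher in 3 of 3 pairs, and 0.654% were called lower with the pair block. Of 36 cell cycle and replication genes 17 were lower and 5 higher in 3 of 3 pairs, with a median of -0.09 log2. Called among them were Top2a (99578_at), a topoisomerase of dividing cells, and Mcm3 (160496_s_at), a subunit of the replicative helicase. Top2a was measured at 7.59, 7.84 and 7.65 in RA arrays 1, 2 and 3, against 8.0, 8.37 and 8.16 in controls 1, 2 and 3, and fell by 0.49 log2 (0.0337 with the pair block). Mcm3 fell by 0.48 (0.0280), and its other probe set differed by -0.32 and did not pass. Mcm7, of the same helicase, differed by -0.52 with all 3 pairs lower and was not called. Pcna, the replication clamp, differed by 0.21 and the mitotic kinase Cdk1 by 0.14 log2, neither called.

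The remaining named falls were in signalling and metabolism. Pth1r (98482_at), the receptor of parathyroid hormone and its related peptide, was measured at 7.43, 7.23 and 7.26 in RA arrays 1, 2 and 3, against 7.85, 8.23 and 8.10 in controls 1, 2 and 3. All 3 RA arrays lay below all 3 controls, and it fell by 0.75 log2 with the pair block (SE 0.12, adjusted p = 0.00966, against 0.996 without a block). Casein kinase Csnk1e fell by 0.76 (0.0287 with the pair block), the phosphatase Ptpn1 by 0.65 (0.0298) and the apoptosis inhibitor Api5 by 0.63 (0.0131). For the 2 lists that follow, 22.1% of all genes were lower and 20.2% higher in 3 of 3 pairs, and 0.654% were called lower. In the glycolysis and hypoxia list of 24 genes 9 were lower and 3 higher in 3 of 3 pairs. The glucose transporter Slc2a3 (-0.58 log2, 0.0287 with the pair block) and pyruvate kinase Pkm (-0.62, 0.0370) were called. Second probe sets differed by -0.26 for Slc2a3 and -0.20 for Pkm and did not pass. Lactate dehydrogenase Ldha differed by -0.07. Immediate early genes, which answer stimuli within minutes to hours, had Ccn2 as the 1 called of 24, with 12 lower and 3 higher in 3 of 3 pairs and a median of -0.14 log2. Fos differed by -0.01, Egr1 by -0.14 and Klf6 by -0.45 log2, none called.

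The other signalling and stress lists held no member called on its brightest probe set. Dimmer probe sets of the homeobox gene Pbx3 (96580_at) and of the protease Casp9 (103711_at) fell by 0.56 and 0.53 log2 with the pair block (0.0281 and 0.0299), where the brightest differed by -0.23 and -0.01. By comparison, 22.1% of all genes were lower and 20.2% higher in 3 of 3 pairs. With the pair block 0.412% of all genes were called higher and 0.654% lower, so 0 calls in a short list is near that share. Of 38 TGF-beta and BMP genes 13 were lower and 2 higher in 3 of 3 pairs, with a median of -0.05 log2 and the growth factor Tgfb2 furthest at -0.48. Of 52 FGF, Notch, Eph and hedgehog genes 12 were higher and 10 lower, with a median of 0.01 and the Notch ligand Dll1 furthest at -0.51, where a dim second probe set differed by -0.0017. The 23 TALE and other homeobox genes had a median of 0.04, with Meox2 at -0.67 and Irx3 at 0.47. Medians were also near that of all genes for 32 growth factors of the IGF and other families (0.00352), 31 matrix proteases and inhibitors (-0.01, Adam19 furthest at -0.45), 26 heat shock and stress genes (-0.06, metallothionein Mt2 furthest at 0.47) and 20 p53 and apoptosis genes (-0.04, Apaf1 furthest at -0.37). They were -0.04 for 17 CDK inhibitors and antiproliferative genes (Phlda1 furthest at -0.42) and -0.06 for 17 genes of cholesterol synthesis (Nsdhl furthest at -0.45, with its other probe sets at -0.01 and 0.08).

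Lists for the other cell types an explant could hold had no member called on its brightest probe set. Of all genes 0.412% were called higher and 0.654% lower with the pair block, so 0 calls in such short lists is near that share. A second probe set of the neuronal tubulin Tubb3 (161612_f_at) fell by 0.47 log2 with the pair block (0.0472), where the brightest differed by -0.31. Neuron markers, with 10 of 23 below the 25th percentile in all 6 arrays, had a median difference of 0.03 log2 and summed to 3668 to 3902 with RA and 3846 to 4102 in controls. Neural tube progenitor markers had a median of -0.0022 log2 over 17 genes and summed to 6599 to 7174 with RA and 6755 to 7261 in controls. Endothelial markers had a median of -0.0023 log2 over 16 genes, with Etv2 the furthest at 0.63. Blood and macrophage markers had a median of 0.08 over 17 genes and summed to 1047 to 1184 with RA and 962 to 1032 in controls, without overlap. Of these 17, 6 were higher in 3 of 3 pairs, where 20.2% of all genes were. The embryonic globin Hbb-y was furthest at 0.43, higher in 2 of 3 pairs. Surface ectoderm markers summed to 6017 to 7347 with RA and 7161 to 7952 in controls, with Cldn6 the furthest at -0.65. The most different member was 0.61 log2 (Pmp22) of 10 glia markers, -0.31 (Tubb3) of the neuron markers and -0.60 (Myh7) of 22 muscle markers, with second probe sets at 0.07 for Pmp22 and 0.11 for Myh7. Melanocyte markers, 9 in number, had a median of 0.07 log2, 12 cartilage and bone markers of 0.01 and 13 endoderm markers of 0.06. RMA values have no zero, so the absence of a marker cannot be read from them.

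The leading rises were also present at the later times, while the medians over all called rises and falls lay nearer 0 there. Hoxa5 differed by 1.46 at 12 h, 2.81 at 24 h and 3.43 at 48 h, Cyp26a1 by 2.05 at 12 h, 2.43 at 24 h and 2.27 at 48 h, and Dhrs3 by 1.33 at 12 h, 1.76 at 24 h and 2.06 at 48 h, all in log2. Csn3 differed by 1.38 at 12 h, 2.01 at 24 h and 2.47 at 48 h, Arg1 by 0.99 at 12 h, 2.31 at 24 h and 2.02 at 48 h, and 104716_at by 1.17 at 12 h, 1.46 at 24 h and 1.35 at 48 h. Ackr3 differed by 0.15 at 12 h, 0.43 at 24 h and -0.02 at 48 h, and Fabp5 by 0.12 at 12 h, 0.03 at 24 h and 0.67 at 48 h. Of those that fell, Dkk1 differed by -0.64 at 12 h, -0.70 at 24 h and -1.13 at 48 h, Id4 by -0.44 at 12 h, -0.45 at 24 h and -0.29 at 48 h, and Smarca4 by 0.00 at 12 h, 0.03 at 24 h and -0.25 at 48 h. The 41 called rises had a median of 0.61 log2 at 6 h, and of 0.02, 0.11 and 0.09 at 12, 24 and 48 h. Of them 7, 9 and 10 were called higher with the pair block at those times, where 14, 58 and 91 of all 12422 probe sets were. The 77 called falls had a median of -0.57 at 6 h, and of -0.11, -0.04 and -0.15 later. Of them 1, 4 and 3 were called lower at those times, where 3, 23 and 32 of all 12422 probe sets were. A positive sign at all 3 later times was seen for 16 of the 41 (39.0%), where 17.3% of all probe sets above 0 at 6 h had it, and a negative one for 31 of the 77 (40.3%), against 20.9%.

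**Figure D5:**
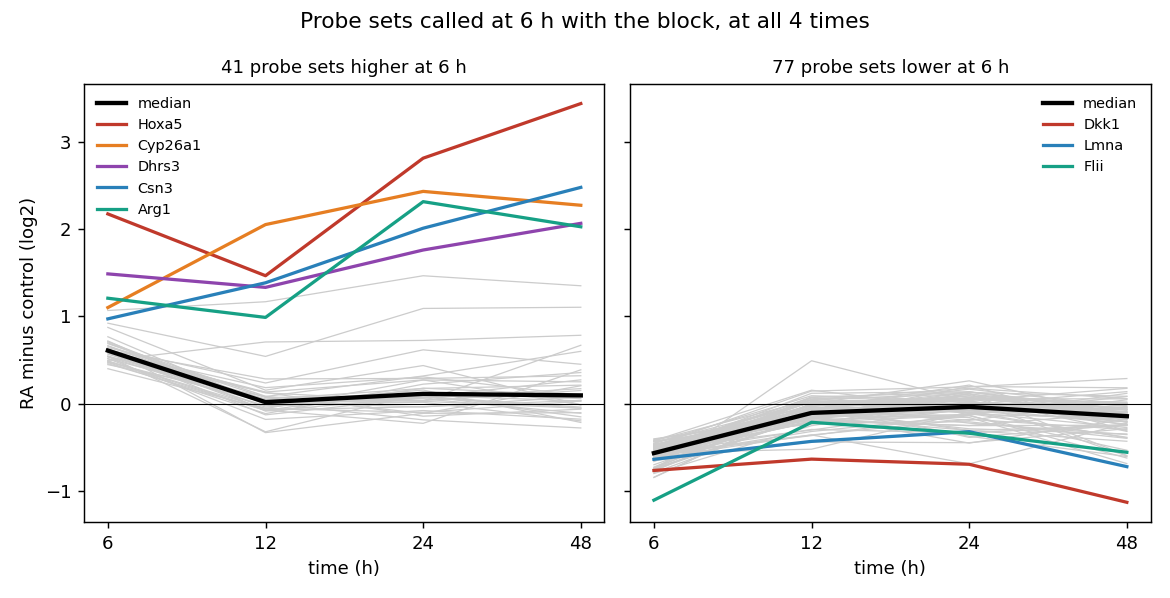
RA minus control in log2 at 6, 12, 24 and 48 h for the 41 probe sets called higher and the 77 called lower at 6 h with the pair block, one grey line each, with the median in black and some genes coloured. Probe sets were picked at 6 h, so some return toward 0 follows from the choice. Hoxa5, Cyp26a1, Dhrs3, Csn3 and Arg1 stay high while the medians at later times lie between -0.15 and 0.11.

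The difference between the RA effects of 2 times was tested in the same fits. Between 12 h and 6 h limma called 0 probe sets (0.0%) without a block, and 160 had an unadjusted p below 0.05. That is less than a share of 0.05 of those tested. With the pair block it called 0, and 931 had an unadjusted p below 0.05. Between 24 h and 6 h it called 0 without a block, with 297 at an unadjusted p below 0.05, again less than that share. With the pair block it called 1 (0.00805%). This was 2810025M15Rik, at -0.90 log2, which rose at 6 h and differed by -0.19 at 24 h. Between 48 h and 6 h it called 2 (0.0161%) without a block, Igfbp3 and the unnamed probe set 161049_at, and 18 (0.145%) with the pair block, 16 of them with a higher effect at 48 h. Among the 18 were Csn3, Krt20, Bhlhe40, Dusp9 and Clu, chosen here after their values were seen. For Cyp26a1 the effect was larger at 12 h than at 6 h by 0.95 log2 and did not pass (adjusted p = 1.00 without a block and 0.424 with the pair block).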

How the data were processed

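Gene expression was measured on 27 single-colour MG_U74Av2 arrays, 6 of them at 6 h. Per the submitters' processing notes, the authors used RMA Express 0.2 and GeneSpring. The deposited table holds linear RMA intensity values, which run from 3.92 to 17003. Here log2 of these deposited values was taken. Of 12488 probe sets 66 were array controls and stayed out, and the other 12422 entered a fit of limma 3.58.1 (R 4.3.3) over all 27 arrays in 8 groups, two-sided, with Benjamini-Hochberg adjustment and a threshold of 0.05. No background or detection value is used here, so dim levels are read only against each array's 25th percentile. The platform annotation gave 1 symbol to 10833 probe sets, several to 396 and none to 1193.

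The labels do not state that equal replicate numbers mark the same embryos. The numbers were taken to pair the arrays because the labels share out the sides of each embryo and because, in the check given with the arrays, every pair at 6 h correlated above 0.1. Over all times the block used 13 pairs, each an RA and a control array of one time with consecutive numbers in the records of one scan day. The fit with the pair as a block leaves 9 residual degrees of freedom and the fit without leaves 19. One 48 h control has a title and a description that disagree, and the fits were repeated without it.

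Named genes were those called without a block, the 14 highest and 14 lowest genes called with it in the same direction in 3 of 3 pairs, all known RA targets, and, of each list, up to 4 called members or the 1 largest difference. A gene with several probe sets was represented by its brightest. The members and lists were chosen with earlier results of these data known. Alternatives were the block, scan day, array weights, an intensity trend, a filter on the 30% dimmest probe sets, both cyclic loess and median centring, and omission of each array or pair. The fitting code was checked on simulated data. Promoter windows are RefSeq's on GRCm38.p6.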

Additional observations from a re-analysis of the deposited data

Results flagged for a closer look

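For 2 probe sets the test of the difference between times, without a block, found a larger effect of RA at 48 h than at 6 h. For Igfbp3 (95082_at), an insulin-like growth factor binding protein, the effects differed by 1.67 log2. Its RA minus control values, in order of time, were -0.32, 0.09, 0.51 and 1.36 log2. For the unnamed probe set 161049_at the effects differed by 3.07 log2, and its RA minus control values, in order of time, were 0.43, 0.81, 1.47 and 3.50 log2.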

How the results depend on the processing

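Without a block 3 probe sets passed at 6 h, and 118 with the replicate block, 732 with that block and 6 h arrays alone, 6 with 6 h arrays alone and no block, 55 with scan day as a block, 0 within one scan day and 141 with array weights. Leaving out 1 array gave 1 to 2 without a block, and leaving out 1 pair gave 3 to 69 with it. With the replicate block, median centring gave 91, cyclic loess 107, a filter on the 30% dimmest probe sets 141, an intensity trend 86, and leaving out the 48 h control with unclear labels 86, alternatives chosen after seeing the data. Why these counts differ was not tested. For the change of the RA effect, 24 h against 6 h gave 0 without a block, 1 with the replicate block, 1 with arrays of those times alone and 3 with the block and without that control. The change at 48 h gave 2, 18, 1 and 13 under the same settings. Differences near 0 turned sign. Without pair 1 in the blocked fit Nr2f2 was -0.035, Stra6 -0.043 and Nrip1 -0.097, and with array weights Nrip1 was -0.015. Stra8 was -0.025 after cyclic loess, blocked or not, and -0.033 without pair 2 in the blocked fit. Nr2f1 was 0.020 within one scan day and, blocked, without pair 3, and 0.0082 after cyclic loess, blocked or not. Meis2 was 0.050 within that day and, blocked, without pair 3, and 0.083 without pair 2. Leaving out single arrays gave -0.040 to 0.14 for Stra6, -0.17 to 0.17 for Nrip1, -0.013 to 0.060 for Stra8, -0.099 to 0.022 for Nr2f1, -0.20 to 0.15 for Meis2 and -0.24 to 0.080 for Bhlhe40. The other named genes kept their direction under every alternative run.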

Other observations

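Some gene families were looked at after the values were seen, so their numbers are a description without a test. Of 61 genes of mitochondrial ribosomal proteins 55 had a difference above 0 at 6 h 33 were higher and 2 lower in 3 of 3 pairs, with a median of 0.28 log2, against 0.02 over all genes. Of all genes 20.2% were higher and 22.1% lower in 3 of 3 pairs, and 0.412% were called higher and 0.654% lower with the pair block. Mrpl17, Mrps24, Mrps21 and Mrpl36 were called with the pair block. The family's median was 0.03 log2 in pair 1, 0.42 in pair 2 and 0.33 in pair 3, so it was near 0 in 1 of the 3 pairs. Subunits of respiratory complex I, 31 in number, had a median of 0.27 log2 with 0 called, and 17 Timm and Tomm genes of mitochondrial import one of 0.17 with Timm8a1 and Timm8b called. The 36 cytoplasmic ribosomal proteins had a median of 0.09.

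On the lower side, 46 genes of DEAD-box helicases and hnRNP proteins, which unwind and package RNA, had a median of -0.14 log2. Of these 22 were lower and 5 higher in 3 of 3 pairs, where 22.1% and 20.2% of all genes were, and Hnrnpul2, Hnrnpd, Ddx54 and Ddx24 were called lower, against 0.654% of all genes. Other probe sets of Hnrnpul2 and Ddx24 differed by -0.20 and 0.07 and did not pass. The 13 Smarc and Chd chromatin remodellers had a median of -0.18 with Smarca4 called. The signs of these medians held after median centring and after cyclic loess. The gap between 3' and 5' control probe sets was larger with RA in 3 of 3 pairs for beta-actin and Gapdh, in 1 of 3 for pyruvate carboxylase and in 0 of 3 for the transferrin receptor. The 6 h difference correlated across genes with gene span at r = -0.230. The part of RNA quality or gene span in these shifts was not tested.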
